A study of Homo sapiens with 8 samples.

Results

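The EZH2 peaks of human chromosome 11 numbered 1477 of the 19721 peaks in the 4 deposited lists of a ChIP-seq experiment, which sequences the chromatin pulled down by an antibody to a protein. They were chosen by the authors' peak calls alone: every called peak on chromosome 11 was kept and placed along the chromosome by its midpoint in windows of 0.5 Mb. The cells were NTKO and TKO, derivatives of the t(4;14)+ multiple myeloma cell line KMS11 at passage 15-20. In NTKO cells the wild-type MMSET allele was inactivated and the rearranged IGH-MMSET allele kept, which leaves MMSET high. In TKO cells the rearranged allele was inactivated and the wild-type allele kept, which leaves MMSET low. Both lines carry the t(4;14) and 1 inactivated MMSET allele, and 1 line of each kind had samples here, so a difference due to MMSET and a difference between the lines cannot be told apart. Each line had 2 EZH2 samples, run 1 and run 2, and 2 input samples that served the authors as controls for the peak calls.

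EZH2 is the catalytic subunit of the Polycomb repressive complex PRC2. It places the trimethyl mark on lysine 27 of histone H3, a mark of silent genes, and PRC2 typically sits on CpG-rich promoters of developmental genes, where it can spread over wide domains. MMSET, also called NSD2, places the dimethyl mark on lysine 36 of the same histone tail, and PRC2 works poorly on tails that carry it. Chromosome 11 is numbered from the tip of its short arm. That tip holds the imprinted cluster with IGF2, a fetal growth factor, H19, a non-coding RNA, and CDKN1C, a cell cycle inhibitor. The long arm carries CCND1, the cyclin gene that is itself translocated in another group of myelomas. The peaks are in hg18 positions, and the hg18 sequence and annotation were not used here, so no gene was assigned to any peak and no sequence is shown.

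On chromosome 11 NTKO cells had 254 peaks in run 1 and 733 in run 2, and TKO cells had 42 and 448. The TKO run 1 list stood apart by its length, so comparisons between lines rest on run 2, which the study used downstream, and the main ones are also given for run 1. The share of each list that lay on chromosome 11 was 8.55% and 6.93% in the NTKO runs and 6.45% and 8.12% in the TKO runs. These ranges overlapped between the lines. The peaks covered 186 kb in NTKO run 1, 668 kb in NTKO run 2, 16.4 kb in TKO run 1 and 284 kb in TKO run 2. Median height, the number of reads at a summit, was 47.5 and 57 in the NTKO runs and 40.5 and 59 in the TKO runs. Peaks on the other chromosomes were slightly higher in each list, with medians of 52, 63, 44 and 66 reads in the same order. Median width was 356, 381, 277.5 and 368.5 bp. The weakest members lay just inside the authors' threshold of 15 on the −log10 p scale, at 15.4, 15.0, 15.2 and 15.1, and peaks below it are not in the lists. The heights carry no stated scaling to library size and the depth of the libraries is not given in the lists, so a higher peak and a deeper library cannot be told apart.

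Peaks were packed into a few parts of the chromosome. The 89 windows with a peak in any list lay among 261 windows from the tip of the short arm to position 130500000, and the other 172 were empty. NTKO run 2 had peaks in 73 windows and TKO run 2 in 71, and 35 and 37 of these held only 1 peak. The 10 windows with most NTKO run 2 peaks held 589 of its 733 peaks (80.4%), as well as 347 of the 448 TKO run 2 peaks (77.5%). In run 1 these windows held 190 of 254 NTKO peaks (74.8%) and 21 of 42 TKO peaks (50.0%). The same 5 windows were the fullest in both run 2 lists. Across the 89 windows, the numbers of NTKO and TKO run 2 peaks had a Spearman rho of 0.55 and those of the NTKO runs a rho of 0.62, over windows that come from the same libraries.

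The fullest windows adjoined each other near the tip of the short arm. From 1500001 to 2000000 there were 142 peaks in NTKO run 2, 143 in TKO run 2, 88 in NTKO run 1 and 15 in TKO run 1. This was the only window with at least 5 TKO run 2 peaks in which they outnumbered the NTKO peaks, and there by 1 peak. The window before it, from 1000001 to 1500000, had 119 and 60 peaks in run 2 and 18 and 0 in run 1, NTKO first. The window after it, from 2000001 to 2500000, had 93 and 68 peaks in run 2 and 32 and 1 in run 1. These 3 windows, grouped after their counts were seen, held 48.3% of the NTKO run 2 peaks and 60.5% of the TKO run 2 peaks of the chromosome. In run 1 they held 54.3% and 38.1%. By covered length these windows held 416 of 668 kb in NTKO run 2 and 186 of 284 kb in TKO run 2.

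The next windows by number lay partly on the long arm. The window from 61000001 to 61500000 had 62 NTKO and 23 TKO peaks in run 2, and 22 and 2 in run 1. The window at the very tip, from 1 to 500000, had 46 and 21 peaks in run 2 and 17 and 1 in run 1. From 64000001 to 64500000 there were 29 and 17 peaks in run 2 and 7 and 1 in run 1. From 65500001 to 66000000 there were 14 and 4 in run 2 and 4 and 0 in run 1. All 4 windows had more NTKO than TKO peaks in both runs.

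**Figure D1:**
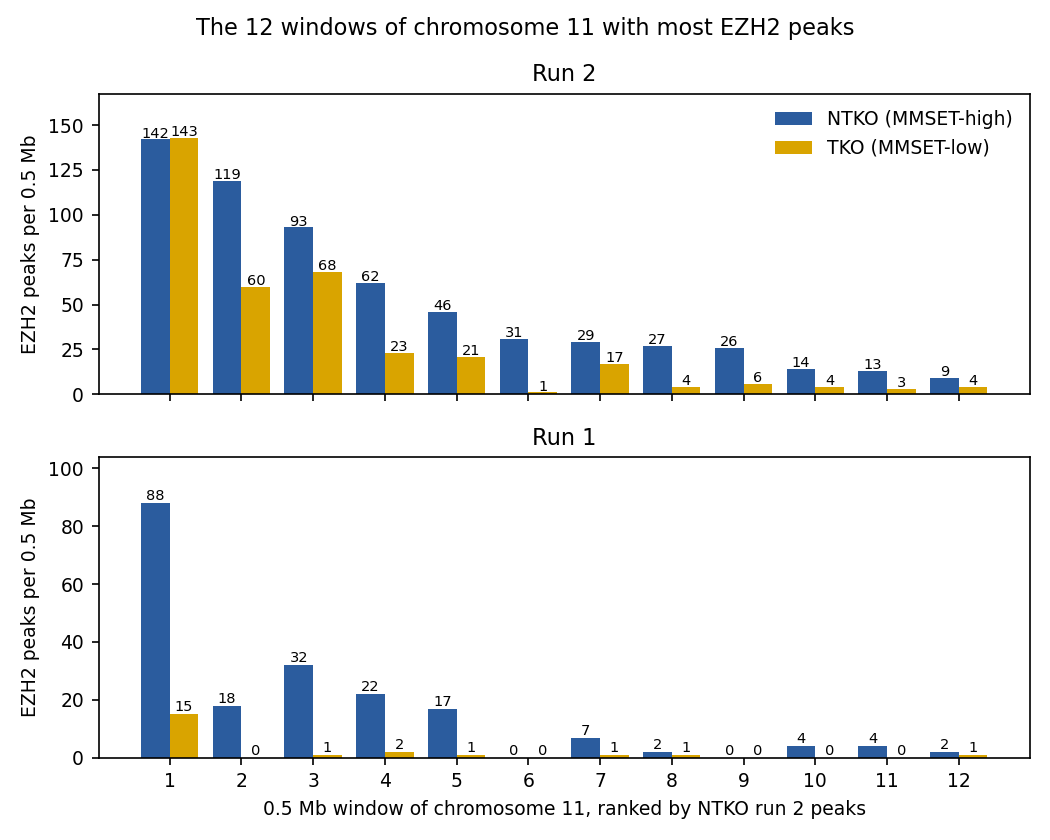
Number of EZH2 peaks in each of the 12 windows of chromosome 11 with most NTKO run 2 peaks, ranked along the horizontal axis, in NTKO (blue) and TKO (yellow) cells, with run 2 above and run 1 below on separate scales that start at 0. The fullest window, rank 1, had 142 and 143 peaks in run 2 but 88 and 15 in run 1, and ranks 6, 8 and 9 are adjoining windows of the long arm with 31, 27 and 26 NTKO run 2 peaks.

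A contrasting block lay on the long arm in the 3 adjoining windows from 68500001 to 70000000. NTKO run 2 had 26, 27 and 31 peaks in them in order of position, and TKO run 2 had 6, 4 and 1. Together this made 84 NTKO and 11 TKO peaks, a ratio of 7.64 against 1.64 for the chromosome. Of the 84 NTKO peaks, 79 (94.0%) shared no base with a TKO peak, against 66.2% on the chromosome and 70.7% in the whole series. The windows from 69000001 and from 69500001 were named for their few TKO peaks, and the window from 68500001 for being among the 10 fullest. They were joined after their counts were seen, so a high share follows from that choice. Run 1 did not show the block, with 2 NTKO peaks and 1 TKO peak in the 3 windows. The NTKO run 2 peaks there were among the weaker ones: their median height was 49 reads, 68 of 84 were under 60 reads, and 51 (60.7%) had a −log10 p under 20, compared with 42.6% of all NTKO run 2 peaks of the chromosome. Among the stronger ones was a region from 69163922 to 69167646 that had a peak in all 4 lists, with heights of 104 and 146 reads in the NTKO runs and 49 and 124 in the TKO runs. Of the 11 windows with at least 10 NTKO run 2 peaks, the one from 3000001 to 3500000 came next to the last window of this block in having few TKO peaks, with 13 and 3 in run 2 and 4 and 0 in run 1.

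Long parts of the chromosome had no peak in any list. The longest such stretch ran from 47959766 to 56859936, over 8900.2 kb, in the part of the chromosome that holds the centromere. The next ran from 36354781 to 43555075 on the short arm (7200.3 kb) and from 20578189 to 27677203 (7099 kb).

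Within the densest part, EZH2 covered nearly unbroken stretches. In the 50 kb from 1950001 to 2000000, peaks covered 96.7% of the bases in NTKO run 2, 84.6% in TKO run 2, 69.5% in NTKO run 1 and 4.93% in TKO run 1. This bin had the highest cover of the 50 bins around the fullest window in all 4 lists. The bins from 1000001 to 1250000 were covered by 23.4% to 40.1% in NTKO run 2 and by 0.320% to 12.4% in TKO run 2. From 2100001 to 2200000 the cover was 62.2% and 66.2% in NTKO run 2 against 21.7% and 13.4% in TKO run 2. By contrast, peaks covered none of the bases from 2450001 to 2850000 in any list.

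When peaks of a list no more than 1 kb apart were joined, the longest domain of NTKO run 2 on the chromosome ran from 1941604 to 2020117. It spanned 78.5 kb with 16 peaks that covered 73.4 kb, where TKO run 2 had 41 peaks that covered 57.0 kb. Its counterparts in TKO run 2 were a pair of domains from 1944346 to 1981163 (36.8 kb, 17 peaks) and from 1982829 to 2015037 (32.2 kb, 21 peaks). In NTKO run 1 the longest domain ran from 1955834 to 1982503 (26.7 kb), and in TKO run 1 from 1971274 to 1974074 (2.80 kb). The longest domain of each list thus overlapped the same place. The other long domains of NTKO run 2 were from 2129137 to 2178616 (49.5 kb, 26 peaks) and from 1801034 to 1828730 (27.7 kb, 13 peaks). TKO run 2 peaks that met them covered 10.2 kb and 8.89 kb.

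**Figure D2:**
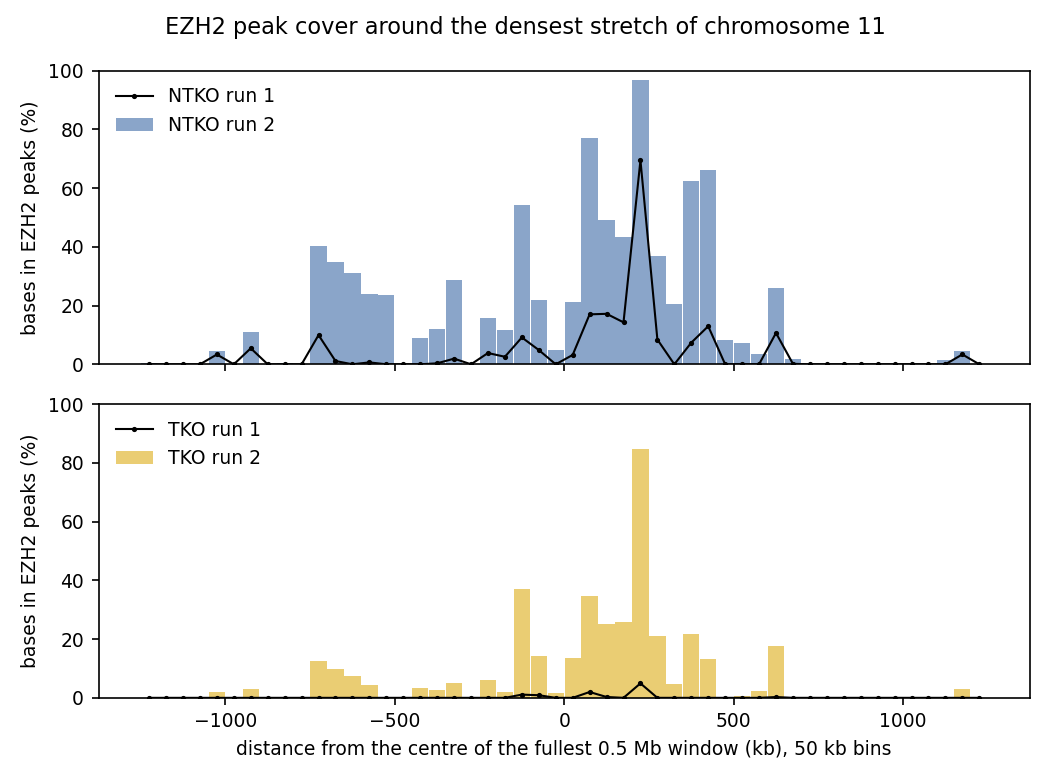
Share of bases inside EZH2 peaks in bins of 50 kb, against the distance in kb from the centre of the fullest 0.5 Mb window of chromosome 11, in NTKO cells (above) and TKO cells (below), with run 2 as bars and run 1 as a line. All 4 lists have their highest cover in the same bin, at 96.7%, 84.6%, 69.5% and 4.93% in NTKO run 2, TKO run 2, NTKO run 1 and TKO run 1.

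The widest single peaks came from the same part of the chromosome. In NTKO run 2 they ran from 1956499 to 1981334 (24836 bp, 190 reads), from 1992924 to 2008836 (15913 bp, 186 reads) and from 1840514 to 1854890 (14377 bp, 184 reads). TKO run 2 had 10, 12 and 6 separate peaks under these, which covered 22670, 11497 and 12034 bp. Its own widest peaks ran from 1957854 to 1970432 (12579 bp, 158 reads), from 1845437 to 1852067 (6631 bp, 153 reads) and from 2386266 to 2391617 (5352 bp, 101 reads). Peaks over 2000 bp made up 10.5% of NTKO run 2 peaks (77), 4.91% of TKO run 2 peaks (22) and 8.27% of NTKO run 1 peaks (21), and TKO run 1 had 0.

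The highest peaks of the NTKO runs were scattered. In NTKO run 2 they lay from 66546434 to 66548819 (218 reads), from 10280575 to 10286059 (192 reads) and from 64265448 to 64270124 (192 reads). In NTKO run 1 they lay from 46358600 to 46361158 (149 reads), from 819095 to 821246 (138 reads) and from 64267471 to 64270093 (125 reads). TKO run 2 had its highest peaks from 1970733 to 1975623 (175 reads), from 66547480 to 66548286 (171 reads) and from 1957854 to 1970432 (158 reads). The TKO run 2 peaks from 1970733 and from 1957854 both lay under the NTKO run 2 peak from 1956499 to 1981334. All 9, some of them at the same places, had a peak in each other list, except that the peak from 819095 had none in TKO run 1. The highest TKO run 1 peak, from 179755 to 180266 with 71 reads, differed from them: NTKO run 1 had a peak of 72 reads there and neither run 2 list had one. The next of TKO run 1 lay from 16582969 to 16584682 (62 reads) and from 5210679 to 5210937 (61 reads), and both had a peak in every list.

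More peaks were called in NTKO than in TKO cells on chromosome 11. The ratio was 1.64 in run 2 and 6.05 in run 1, and the ratio of covered length was 2.35 and 11.3. On the other chromosomes together the ratio of peak numbers was 1.94 in run 2 and 4.46 in run 1. By number, chromosome 11 thus lay below the rest in run 2 and above it in run 1. The ratio of covered length on the other chromosomes was 2.32 in run 2 and 6.45 in run 1. By cover, chromosome 11 was near the rest in run 2 and above it in run 1. Among the 21 chromosomes with at least 100 NTKO run 2 peaks, chromosome 11 was at rank 15 by the run 2 ratio and at rank 7 by the share of NTKO run 2 peaks in its 10 fullest windows. Chromosome 21, at rank 1 by that share, had NTKO run 2 peaks in 16 windows and chromosome 11 in 73. The 10 windows are thus not a like part of each chromosome. NTKO peaks outnumbered TKO peaks in 45 windows in run 2, TKO peaks in 22, and 21 windows were equal. Apart from the fullest window, none of those 22 windows held more than 4 TKO run 2 peaks. In both runs NTKO peaks outnumbered TKO peaks in 20 windows, and the reverse held in 1. No test was run on these numbers, since the called peaks are themselves what was chosen.

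Most TKO peaks of chromosome 11 lay on an NTKO peak. In run 2, 393 of 448 TKO peaks shared a base with an NTKO peak, and 55 (12.3%, Wilson 95% interval 9.55 to 15.6) did not, against 23.7% of TKO peaks in the whole series. The Wilson intervals here cover counting error only and treat peaks as independent. Of the gaps between neighboring NTKO run 2 peaks, 51.2% were within 1 kb, so the intervals are too narrow. By the share of TKO run 2 peaks without an NTKO peak, chromosome 11 was at rank 18 of the 21 chromosomes. In the 3 densest windows 12 of 271 TKO run 2 peaks (4.43%) lacked an NTKO peak. Outside the 5 windows nearest the tip and the block from 68500001 to 70000000, 40 of 143 (28.0%) did, so the low share for the chromosome came with the dense windows. In run 1, 36 of 42 TKO peaks (85.7%, Wilson interval 72.2 to 93.3) met an NTKO peak, near the 82.3% of the whole series. Conversely, 485 of 733 peaks of NTKO run 2 (66.2%, 62.7 to 69.5) had no TKO peak, near the 70.7% of the whole series. In run 1, 28 of 254 NTKO peaks met a TKO peak and 89.0% did not, while 13.4% of all NTKO run 1 peaks in the series met one. In the 3 densest windows the share of NTKO run 2 peaks without a TKO run 2 peak was 73.1%, 45.8% and 63.4% in order of position.

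Peaks found in 1 line were low and narrow. A typical NTKO-only peak was 51 reads high and 276 bp wide (medians of 485), while the 248 NTKO peaks that met a TKO peak had medians of 84 reads and 1033.5 bp. The 55 TKO-only peaks had medians of 53 reads and 168 bp, and the 393 that met an NTKO peak had 60 reads and 413 bp. Only 20 of the 485 NTKO-only peaks (4.12%) were met by an NTKO run 1 peak, compared with 125 of the 248 shared ones (50.4%). Of the 55 TKO-only peaks 1 was met by a TKO run 1 peak, compared with 29 of the 393 shared ones (7.38%). Such peaks were seldom found again in the whole series as well. With overlapping peaks merged into regions, 557 regions there had a peak in both NTKO runs alone and 6841 in NTKO run 2 alone. On chromosome 11 these numbers were 19 and 465. For TKO cells they were 30 and 1254 in the whole series and 1 and 53 on chromosome 11. In the opposite direction the short lists were nearly contained in the long ones: 250 of 254 NTKO run 1 peaks (98.4%, Wilson interval 96.0 to 99.4) and 38 of 42 TKO run 1 peaks (90.5%, 77.9 to 96.2) were found again in run 2 of the same line. In the whole series these shares were 94.3% and 83.6%. NTKO run 1 peaks were met by TKO run 2 peaks in 78.0% of cases, compared with 62.5% in the whole series.

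The lists were merged into 782 regions of chromosome 11, and 465 of them (59.5%) had a peak in NTKO run 2 alone, near the 57.7% of the whole series. A peak in both run 2 lists and in neither run 1 list was found in 113 regions, and 100 had a peak in every list but TKO run 1. In the whole series 8.57% of merged regions had that last pattern, compared with 12.8% on chromosome 11. TKO run 2 alone gave 53 regions (6.78%, whole series 10.6%). Both NTKO runs and neither TKO run gave 19 regions (2.43%, whole series 4.70%), and both TKO runs and neither NTKO run gave 1. Of the 19, 6 lay in the window from 61000001 to 61500000. The highest of the 19 lay from 43920936 to 43923072, with 87 reads in NTKO run 1 and 172 in run 2. The next lay from 61091200 to 61091935 (49 and 130 reads) and from 65945594 to 65946214 (46 and 119 reads). The region found in TKO cells alone lay from 61339095 to 61341532, with 42 reads in run 1 and 151 in run 2, in the same window as those 6 NTKO regions.

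**Figure D3:**
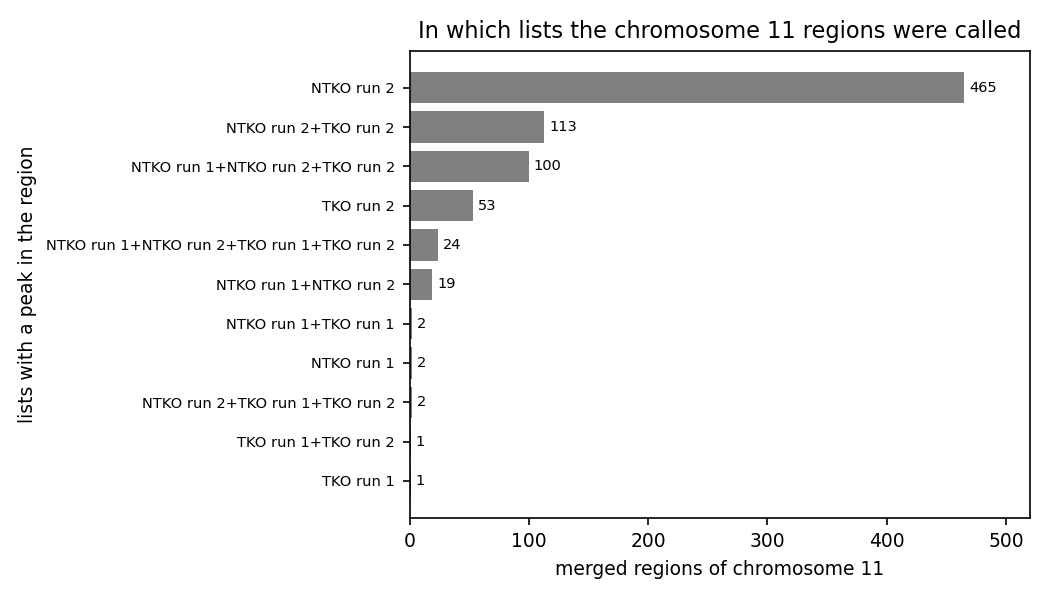
Number of merged regions of chromosome 11 (horizontal axis) by the lists in which they had a peak (vertical axis). Regions of NTKO run 2 alone were the most common with 465, 24 regions had a peak in all 4 lists, 19 in both NTKO runs only and 1 in both TKO runs only.

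Where both lines had a peak, the NTKO peak was usually the higher and wider one. Run 2 gave 240 mutual best pairs, in which each peak overlapped its partner more than any other, and their heights averaged 93.6 reads (SD 35.5 over peaks) for NTKO and 71.8 reads (SD 26.0) for TKO. The NTKO peak was higher in 199 pairs (82.9%, whole series 73.3%) and the median log2 ratio of heights was 0.37, with quartiles of 0.14 and 0.58. In the whole series the median was 0.25. Once that shift was subtracted, an alternative chosen after seeing the data, the chromosome 11 median was 0.12 and the NTKO peak was higher in 159 of 240 pairs. The median widths were 1086.5 bp for NTKO and 453.5 bp for TKO, the log2 ratio had a median of 1.09 (whole series 0.83), and 208 NTKO peaks were the wider ones (86.7%, whole series 80.4%). In 67 cases 1 NTKO peak overlapped several TKO peaks, up to 12, while 7 TKO peaks overlapped several NTKO peaks, up to 3. With peaks within 1 kb joined first, the width ratio was 1.04. In run 1 the 27 pairs had median log2 ratios of 0.92 for height and 1.56 for width, and 26 of the NTKO peaks were higher.

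The pairs of the densest part showed these ratios as well. From 1000001 to 2500000 the median log2 ratios over 139 pairs were 0.41 for height and 1.12 for width, and outside the windows nearest the tip and the block on the long arm they were 0.35 and 0.81 over 80 pairs. Among the 3 densest windows the width ratio was lowest in the fullest, at 0.89 over 75 pairs, against 1.85 over 31 pairs before it and 2.09 over 33 pairs after it. The window from 61000001 to 61500000 had 14 pairs, all with a higher and wider NTKO peak. It also held the pair with the largest height ratio of the chromosome, a log2 ratio of 1.39 between an NTKO peak from 61073407 to 61079138 (139 reads) and a TKO peak from 61078351 to 61078858 (53 reads). The lowest ratio was between an NTKO peak from 14336409 to 14336559 (49 reads) and a TKO peak from 14336182 to 14337887 (98 reads).

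The difference between the runs of a line was larger than that between the lines in run 2. Paired across the runs, run 2 peaks exceeded run 1 peaks in height by a median log2 ratio of 0.98 in NTKO cells (144 pairs) and 1.52 in TKO cells (29 pairs). For width the ratios were 1.41 and 2.03. The line difference of 0.37 in height was therefore smaller than the shift between runs. That shift went the same way in both lines, and it was measured over other sets of pairs.

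**Figure D4:**
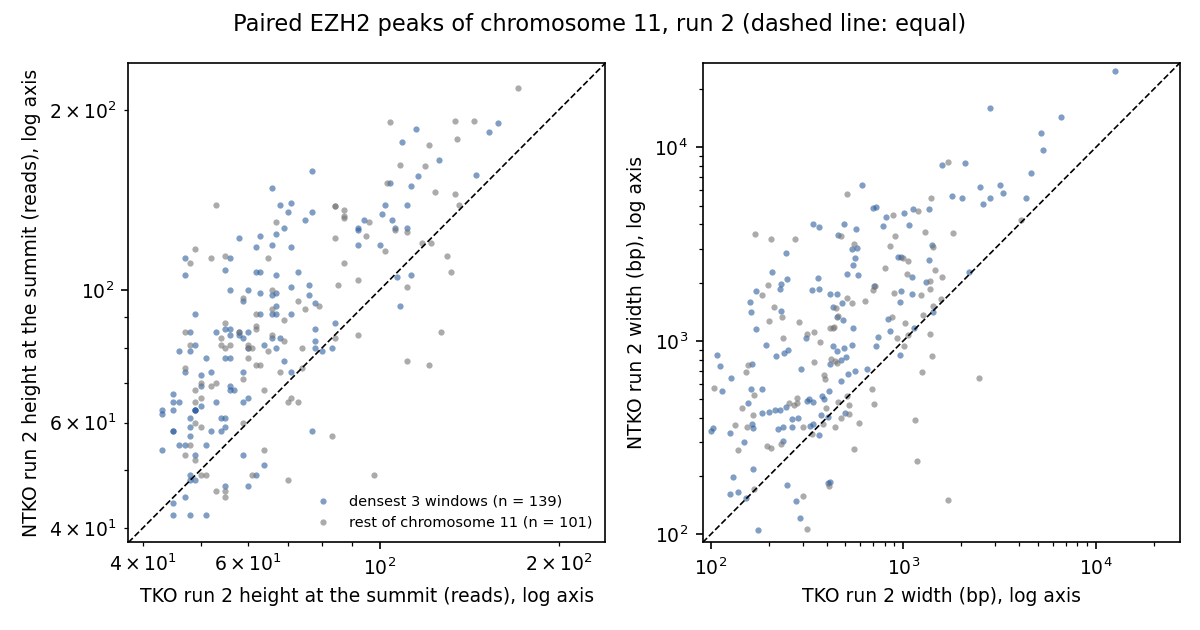
Height in reads (left) and width in bp (right) of 240 paired run 2 peaks of chromosome 11, TKO on the horizontal and NTKO on the vertical log axis, with pairs of the 3 densest windows in blue and the others in gray. Most points lie above the dashed line of equal values, 199 of 240 for height and 208 of 240 for width.

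Heights could be compared over all samples only in regions with a peak in all 4 lists, 24 on chromosome 11 and 326 in the whole series. Entry required a call in the short TKO run 1 list, with 42 peaks on chromosome 11. This left out 100 regions of the chromosome with a peak in every other list, so the 24 were selected by signal in TKO cells. Of the 24, 8 lay from 1000001 to 2500000. Median height over the 24 was 79.5 reads (44 to 149) in NTKO run 1, 139 (65 to 218) in NTKO run 2, 41.5 (33 to 62) in TKO run 1 and 125 (48 to 175) in TKO run 2. On the log2 scale the heights averaged 6.65 ± 0.56 (SD, n = 2) for NTKO and 6.14 ± 0.99 (SD, n = 2) for TKO, so the lines differed by less than the spread between runs. The NTKO height was the larger one in both runs in 20 of the 24 regions (83.3%), against 71.2% of the 326. Both NTKO heights lay above both TKO heights in 2 of the 24, against 12% of the 326. In 22 of the 24 the TKO run 2 height was above the NTKO run 1 height.

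Single regions showed how the runs and lines were ordered. The largest mean log2 ratio was from 64265448 to 64270124, with 125 and 192 reads in the NTKO runs and 36 and 144 in the TKO runs (log2 ratio 1.11, SE 0.84). The next was from 46358600 to 46361409, with 149 and 162 reads in the NTKO runs and 50 and 110 in the TKO runs (1.07). There the NTKO heights did not overlap the TKO heights. The third was from 10280575 to 10286059, with 118 and 192 against 39 and 134 reads (1.06), where they did overlap. At the other end lay a region from 16582618 to 16585087, with 50 and 76 reads in the NTKO runs and 62 and 121 in the TKO runs (-0.49). It was the only one of the 24 that was lower in NTKO cells in both runs. The others at that end were from 86343258 to 86344298, with 53 and 114 against 51 and 130 reads (-0.07), and from 34334791 to 34336216, with 48 and 107 against 36 and 132 reads (0.06). The widest NTKO peak of the chromosome, from 1956499, had heights of 98 and 190 reads in the NTKO runs and 49 and 175 in the TKO runs.

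The test over both runs of each line, limma on the heights as deposited, called 0 of the 326 regions (0%) with Benjamini-Hochberg adjustment at 0.05, and 0 also had an unadjusted p under 0.05. On chromosome 11 the smallest adjusted p was 0.944. Each of the 24 regions there had an SE of 0.84, against a largest estimate of 1.11. This fit left the shift between runs in its error. It could hardly have called a difference of the size seen, so nothing is concluded from the 0 calls. The estimate was positive in 22 of the 24 regions and negative in 2. Centering the heights on the median of each sample lowers every region's estimate by the same amount, from a median of 0.55 to -0.09 over all 326 regions, and on that scale 9 of the 24 were positive and 15 negative. With centering and the replicate number as a block together, a pairing that the labels do not state, 3 of the 24 were called, all lower in NTKO cells. The same setting called 47 of the 326 regions, 8 higher and 39 lower in NTKO cells. The median log2 ratio of the 24 was 0.92 within run 1 and 0.24 within run 2. It was -0.20 when TKO run 1 was left out, which sets TKO run 2 against the mean of both NTKO runs, and 1.28 when TKO run 2 was left out.

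**Figure D5:**
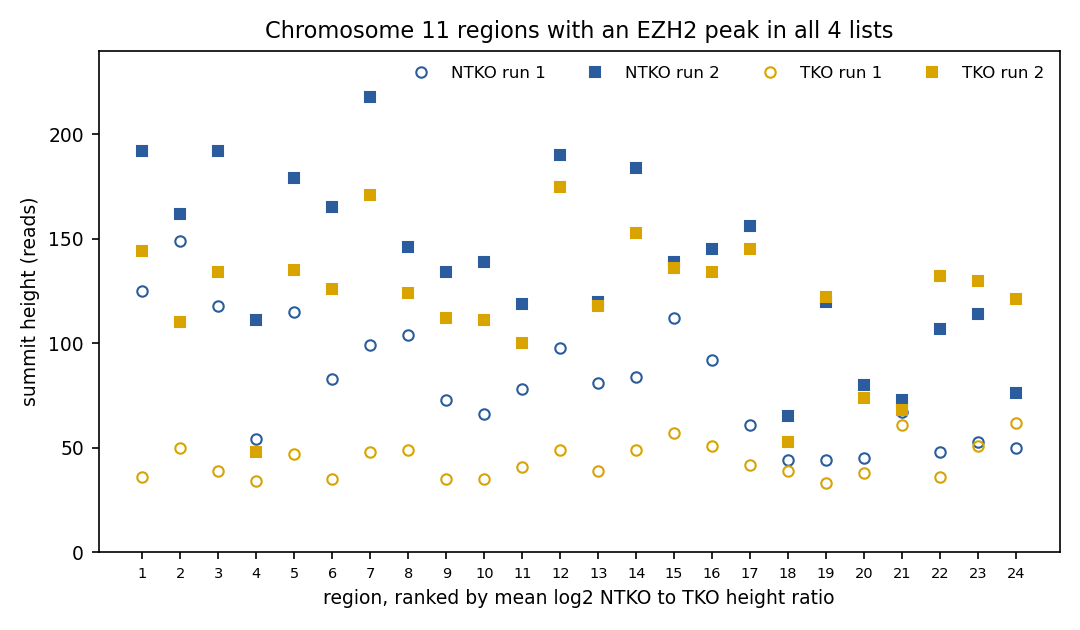
Summit height in reads (vertical axis) of the 24 chromosome 11 regions with a peak in all 4 lists, ranked along the horizontal axis by their mean log2 NTKO to TKO ratio. NTKO values are blue and TKO values yellow, with run 1 as open circles and run 2 as filled squares. Run 2 values of both lines mostly lie above the run 1 values, and the region at rank 24 has higher TKO values in both runs.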

How the data were processed

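EZH2 ChIP samples of NTKO and TKO cells (2 each) gave 1 peak list each. The labels do not say whether the samples of a line came from separate cultures, while the paper calls them independent biological replicates. Reads were mapped by the authors to hg18 with BWA. They dropped reads at identical positions and ran the peak calls per sample against its own input with ChIPseeqer (2-fold, −log10 p of at least 15). The submitters' notes also name CASAVA 1.8. The signal columns deposited by the authors hold the mean read level in a peak and the height at its summit, with no stated scaling. A peak's log10 p-value is a score that the authors deposited. Its summit place, deposited as a percent of the width, was recomputed here from positions. The reference at hand was of other builds, so genes, motifs and sequences were not analysed, and positions are hg18, counted from 1.

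Peaks sharing at least 1 bp counted as shared, and heights and widths were compared over mutual largest overlaps. Limma 3.58.1 in R 4.3.3 was fitted to log2 heights of all regions found in the 4 lists. It pools the spread over regions, which share the same samples. Named windows were the 10 fullest in NTKO run 2, those with at least 5 TKO run 2 peaks and more TKO than NTKO peaks, and the 3 with at least 10 NTKO and fewest TKO peaks, ties kept. Named peaks were the 3 highest of each list and the 3 widest of run 2. Named regions were the 3 largest and 3 smallest ratios among those in all lists, the 3 highest of 1 line alone, and the 3 longest stretches without a peak. Other regions named were chosen after their values were seen. The chromosome, the windows and the tests were chosen with earlier results of these data known. Depth is unknown from the lists, so the precision of a single height is unknown. Functions were tested on simulated data. Other tools were matplotlib 3.10.9, scipy 1.17.1, pandas 2.3.3 and numpy 2.4.6 under Python 3.11.15. Alternatives were run 1, a −log10 p of at least 20, joining peaks within 1 kb, an overlap of 50% of both peaks, equal peak numbers, shifted or 1 Mb windows, centering, the mean read level, leaving out samples and a replicate block.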

Additional observations from a re-analysis of the deposited data

How the results depend on the processing

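In all, 56 alternatives were run for 12 results, and 1 of them was chosen after seeing the data. All 19 alternatives of the ratios of number, covered length, height and width kept NTKO above TKO. For the replicate block this was fixed in advance, since it averaged the ratios of the 2 runs on the log scale. No alternative for number or covered length adjusted for the depth of the libraries. In run 1 alone (without replicate 2), the ratios were 6.05 for number and 11.3 for covered length, and the log2 ratios 0.92 for height and 1.56 for width. There, 85.7% of TKO peaks were shared, 89.0% of NTKO peaks were not, 45 NTKO and 22 TKO windows had a peak, and the 10 fullest NTKO windows, ranked anew, held 79.1%. When an overlap had to cover 50% of both peaks, the shared TKO peaks came to 22.8%, the unshared NTKO peaks to 86.1%, the log2 width ratio to 0.40, and the run 1 peaks found again to 20.1% (NTKO) and 16.7% (TKO). This filter limits how far widths can differ. With peaks within 1 kb joined, 82.7% of TKO peaks were shared and the 10 fullest windows held 69.6%. With equal numbers of peaks, 83.5% of TKO peaks were shared, and the unshared NTKO peaks fell from 66.2% to 50.4%. The unshared NTKO peaks came to 61.2% with peaks within 1 kb joined and to 60.6% at a −log10 p of at least 20. The 10 fullest windows held 78.4% at a −log10 p of at least 20, 78.7% in shifted windows and 83.3% by covered length. Limma called 0 of 326 regions without each sample in turn, where a lone sample is assumed to vary like the others, and also with mean read levels, with centering, or with the replicate block alone. At an unadjusted p under 0.05 there were 156 without TKO run 2, 1 without TKO run 1, 0 without either NTKO run, 6 with mean read levels, 28 with centering and 77 with the block. With centering and the replicate block together it called 47, 8 higher and 39 lower in NTKO cells. Of these, 3 lay on chromosome 11, all lower in NTKO cells, from 16582618 (limma adjusted p = 0.00432), from 86343258 (0.0271) and from 34334791 (0.0276). Paired by number as a replicate block, the ratios were 3.15 for number and 5.15 for covered length, and the log2 ratios 0.64 and 1.32. Deviations from the line means correlated within a number (r = 0.759), and with 2 samples a line the value across numbers (r = -0.759) is its mirror. Samples of the same number thus deviated together, but the labels do not say that a number marks a shared day or culture, and there are only 2 pairs.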

Other observations

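The chromosome 11 peaks of the 4 lists were alike in the median place of the summit, while the mean read level relative to the height differed between the runs. The summit lay at a median of 43.8% and 45.5% of the peak width from its start in the NTKO runs and 46.0% and 47.7% in the TKO runs. It lay in the outer 10% of the peak at either end in 6.69%, 6.28%, 9.52% and 3.79% of peaks in the same order. The mean read level in a peak was a median of 0.755, 0.645, 0.740 and 0.606 of the height at its summit. Peaks under 200 bp made up 26.4%, 27.0%, 23.8% and 28.3% of the lists.

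The distance to the next peak differed more. The median gap between neighboring peaks was 882.5 bp in NTKO run 2, 1297 bp in TKO run 2 and 2072 bp in NTKO run 1, but 413333 bp in TKO run 1, whose 42 peaks were spread over 22 windows. In the 3 densest windows the median gap was 535 bp in NTKO run 2 and 711 bp in TKO run 2. In the block from 68500001 to 70000000 it was 1846 bp among the 84 NTKO run 2 peaks, and none of these peaks was over 2000 bp wide, while 52 of 354 were in the densest windows.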
